A study of Arabidopsis thaliana with 6 samples.

Results

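The genes described here carry the breakdown of proline, threonine, lysine, methionine and tyrosine in Arabidopsis thaliana. They are 10 of the 33323 gene IDs in the deposited tables: the proline dehydrogenases PRODH1 (AT3G30775) and PRODH2 (AT5G38710), the pyrroline-carboxylate dehydrogenase P5CDH (AT5G62530), the threonine aldolases THA1 (AT1G08630) and THA2 (AT3G04520), LKR/SDH (AT4G33150), D2HGDH (AT4G36400), MGL (AT1G64660), HGO (AT5G54080) and, for contrast, the proline synthesis gene P5CS1 (AT2G39800). The genes were picked by gene ID, but they were selected from pathways whose RPKM values in hid1 and WT were already known, so their difference between the genotypes is given below as a description and is not a test. The study compared hid1 (hidden treasure 1) mutant seedlings with wild type (WT) seedlings, both 5 days old and both grown in the light condition called cR in the labels (known from the study to stand for continuous red light). The HID1 locus is known to give a noncoding RNA with a role in photomorphogenesis, the light-driven programme of seedling development. Each genotype had 3 libraries of poly(A) RNA from whole seedlings, which the submitters called biological replicates. The sources used here give neither the nature of the hid1 allele nor the hour of harvest, and the mutated gene was not analysed here because the name table paired no ID with it.

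Amino acids are broken down in plants when carbon or energy is short, and their carbon skeletons then feed the mitochondrial tricarboxylic acid cycle or the respiratory chain. Proline is oxidised in mitochondria in a pair of steps, by proline dehydrogenase and then P5CDH, back to glutamate, the compound from which P5CS1 starts its synthesis. Threonine aldolase splits threonine into glycine and acetaldehyde. LKR/SDH is a bifunctional enzyme for the first steps of lysine breakdown, D2HGDH oxidises D-2-hydroxyglutarate and passes electrons to the respiratory chain, methionine gamma-lyase (MGL) splits methionine into methanethiol, 2-oxobutyrate and ammonia, and HGO opens the ring of homogentisate in tyrosine breakdown. Transcripts of several of these enzymes are known to accumulate in darkness or sugar starvation, in part through basic leucine zipper (bZIP) factors of groups S1 and C. The bZIP factors are known in Arabidopsis to act on PRODH1 through a hexamer, ACTCAT, in its promoter.

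The upstream sequences of 4 of the genes are shown because they bear on that hexamer: 3 hold it, PRODH1, THA1 and P5CDH, and THA2, the close relative of THA1, does not. Each run is the 250 bases before the annotated gene start, 5′ to 3′ on the strand of the gene, from the RefSeq genome and annotation of TAIR10.1, and capitals mark ACTCAT or its reverse complement ATGAGT.

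PRODH1, minus strand, chr3:12451557-12451806: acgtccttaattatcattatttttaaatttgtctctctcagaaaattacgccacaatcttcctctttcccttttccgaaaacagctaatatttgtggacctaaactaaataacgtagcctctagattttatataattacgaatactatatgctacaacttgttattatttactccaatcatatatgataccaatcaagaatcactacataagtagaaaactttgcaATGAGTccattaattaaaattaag

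THA1, minus strand, chr1:2747968-2748217: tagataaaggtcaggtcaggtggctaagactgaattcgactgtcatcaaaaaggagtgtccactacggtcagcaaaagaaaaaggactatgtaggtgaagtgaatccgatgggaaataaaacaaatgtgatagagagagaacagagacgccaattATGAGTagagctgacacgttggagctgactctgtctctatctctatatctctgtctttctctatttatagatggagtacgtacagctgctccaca

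P5CDH, minus strand, chr5:25103313-25103562: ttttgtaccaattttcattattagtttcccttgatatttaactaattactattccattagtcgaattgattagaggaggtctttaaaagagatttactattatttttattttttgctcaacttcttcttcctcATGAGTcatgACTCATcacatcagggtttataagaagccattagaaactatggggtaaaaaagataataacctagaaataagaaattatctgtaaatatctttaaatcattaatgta

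THA2, minus strand, chr3:1219848-1220097: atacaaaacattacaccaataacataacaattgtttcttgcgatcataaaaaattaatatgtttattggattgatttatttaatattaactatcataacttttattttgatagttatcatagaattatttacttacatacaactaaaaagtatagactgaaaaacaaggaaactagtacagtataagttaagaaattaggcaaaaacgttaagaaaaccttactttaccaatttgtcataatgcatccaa

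The hexamer began 24 bases before the annotated start of PRODH1, 95 bases before that of THA1 and 117 and 107 bases before that of P5CDH, the last on the opposite strand from the other matches. On either strand it was present in 3 of the 10 genes and in 12.3% of the 26706 protein-coding genes searched in the same window. The G-box CACGTG, a common binding motif of bZIP factors, was present in MGL alone (78 bases before the start), against 6.58% of all windows. TATCCA, an element known from sugar-starved rice, was present in PRODH2, LKR/SDH and D2HGDH, against 13.7% of all windows. None of these 3 motifs was found in the windows of P5CS1, THA2 and HGO. No match overlapped another in the 10 windows. Other annotated genes reach into 2 of the windows, AT4G36390 into that of D2HGDH and AT5G54070 and AT5G54075 into that of HGO. These matches describe the letters in a short window and say nothing of binding. Whether the match in PRODH1 is the hexamer known to act there was not tested.

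Levels are the RPKM of the authors (reads per kilobase of transcript, scaled to library depth). Fold changes are log2 of (RPKM + 1), hid1 minus WT, with a standard error (SE) from limma, a linear model fitted over the 18871 genes that averaged 1 RPKM or more in hid1, in WT or in both. On that scale the differences of low genes come out too small. A gene is called changed at a limma adjusted p of at most 0.05. Depth was estimated at 17.9 to 23.7 M reads in hid1 and 19.5 to 26.1 M reads in WT. Markers of green tissue were abundant in every library, with a summed level of 50330 to 62727 RPKM in hid1 and 56381 to 57666 RPKM in WT. Of 8 root markers all were above 0 in every library, and their summed level was 217 to 288 RPKM in hid1 and 76.0 to 177 RPKM in WT, with replicate 1 the highest in both genotypes. Of these 8, 5 rose (TIP2;3, EXPA7, SCR, PRP3 and PIN2) and none fell, against 9.41% and 4.21% of all genes tested. The libraries of the 2 genotypes overlapped for PRP3 and PIN2. SHR, which was not called, was at 13.2 ± 1.05 RPKM in hid1 and 14.6 ± 3.54 RPKM in WT (limma adjusted p = 0.674). TIP2;3 stood at 98.8 ± 22.7 RPKM in hid1 and 32.7 ± 21.99 RPKM in WT (limma adjusted p = 0.00934, n = 3 each). TIP2;3 and EXPA7 each lost the call when low genes were kept and when hid1 replicate 2 was left out, and PRP3, PIN2 and SCR lost theirs in 7, 8 and 9 of the 12 other settings. Of 6 seed markers the 4 tested did not pass, PER1 being at 7.60 ± 2.07 and 4.45 ± 2.45 RPKM and EM6 at 4.22 ± 1.20 and 4.24 ± 2.99 RPKM in hid1 and WT (SD, n = 3 each), and SESA1 was listed at 0 in hid1 replicate 3 and WT replicates 2 and 3. PER1 passed without WT replicate 1 (1.07, limma adjusted p = 0.00246) and with a replicate block (limma adjusted p = 0.00895). The summed seed marker level was 11.75 to 24.85 RPKM in hid1 and 7.04 to 18.9 RPKM in WT, and replicate 1 was the highest in both genotypes. Among the green markers LHCB1.3 (31226 ± 6895 RPKM in hid1, 31894 ± 2186 RPKM in WT) and RBCS1A (20901 ± 3992 and 19734 ± 2311 RPKM) did not pass either.

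**Figure D1:**
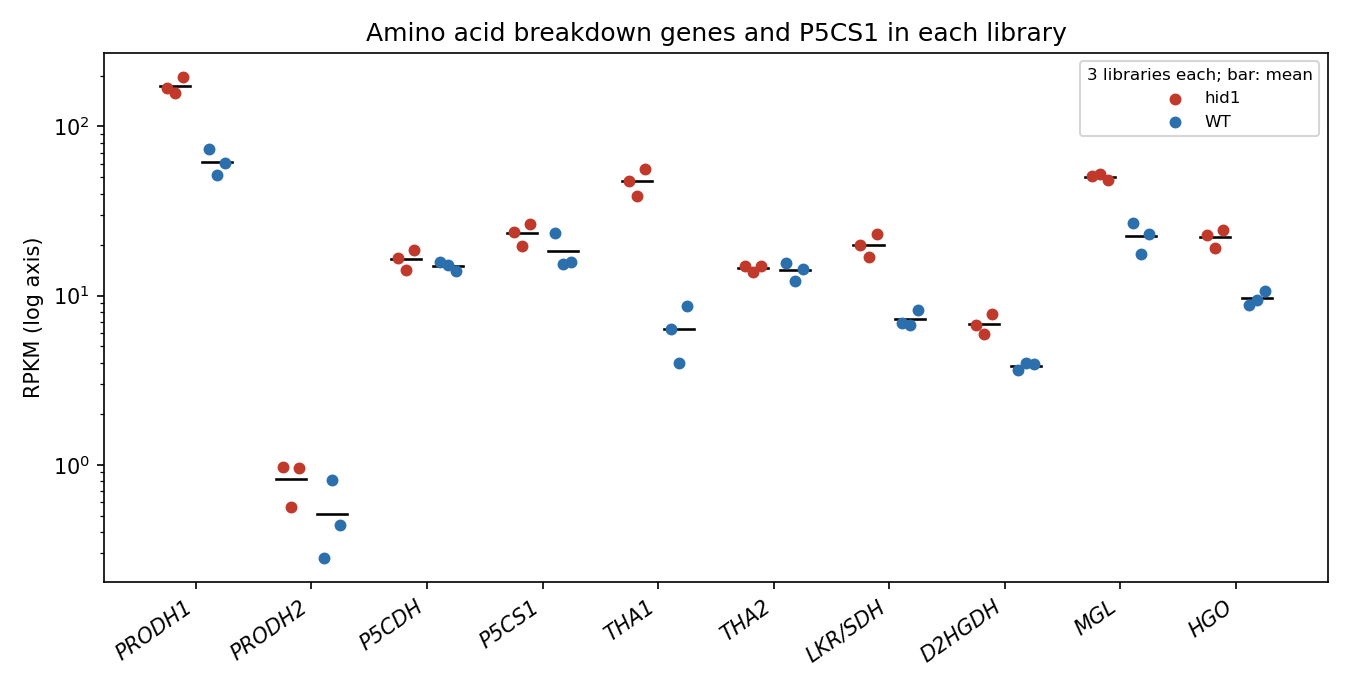
RPKM on a log axis of the 10 genes in each of the 3 hid1 libraries (red) and 3 WT libraries (blue), with the mean as a bar. For PRODH1, THA1, LKR/SDH, D2HGDH, MGL and HGO every hid1 point lies above every WT point, and for the other 4 the genotypes overlap.

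Of the 10 genes, 9 passed the filter on low values. Of those 9, 6 were called higher in hid1, none lower, and 3 were not called. Of all genes tested, 9.41% were called higher and 4.21% lower. The same 6 genes were the ones whose hid1 libraries all lay above the WT libraries, which held for 23.1% of all genes tested. Because the genes were proposed with this contrast known, nothing is read from these counts. The median fold change of the 9 was 1.12, against 0.07 over all genes tested. In RNA of whole seedlings, more RNA per cell and more cells of a type cannot be told apart. The share of higher genes among the calls depended on the scaling of the libraries: 1775 were higher and 794 lower as deposited, 1305 and 1343 with quantile normalization, and 1329 and 1222 with median-ratio scaling.

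In proline breakdown, PRODH1 was the most abundant of the 10 transcripts in both genotypes and differed clearly between them. It stood at 168.58, 157.34 and 195.9 RPKM in hid1 replicates 1, 2 and 3, and at 73.22, 51.5 and 61.08 RPKM in WT replicates 1, 2 and 3. The lowest hid1 library was 2.15 times the highest WT library. The means were 173.9 ± 19.8 and 61.9 ± 10.9 RPKM (SD, n = 3 each), a ratio of 2.81, and the log2 fold change was 1.48 (SE 0.14). PRODH1 lies on chromosome 3 (12448636 to 12451556, minus strand, TAIR10.1) in 4 exons and overlaps no other listed gene.

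PRODH2, the second proline dehydrogenase, was barely expressed. Its values were 0.97, 0.56 and 0.95 RPKM in hid1 and 0.28, 0.81 and 0.44 RPKM in WT, where the ranges overlapped. It fell below the filter and was not tested, and its values rest on about 11 to 45 reads per library. PRODH1 was 174 to 281 times as abundant as PRODH2 in hid1 and 63.6 to 262 times as abundant in WT, per length of transcript.

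P5CDH, which carries out the step after proline dehydrogenase, did not follow PRODH1. It stood at 16.79, 14.26 and 18.61 RPKM in hid1 and at 15.84, 15.15 and 14.06 RPKM in WT, and hid1 replicate 2 lay within the range of the WT libraries while the other two hid1 libraries lay above it. The fold change was 0.13 (SE 0.13) and was not called. The ratio of PRODH1 to P5CDH within a library was therefore 10.04 to 11.0 in hid1 and 3.40 to 4.62 in WT. The gene lies on chromosome 5 (25099003 to 25103312) and shares 905 bases with SRO5, a gene on the opposite strand at 8.15 to 8.47 RPKM in hid1 and 6.50 to 9.24 RPKM in WT. Without knowledge of the strand, reads of the 2 genes cannot be told apart there.

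P5CS1, the enzyme of the rate-limiting step of proline synthesis, showed a small difference within its spread. It stood at 23.77, 19.77 and 26.59 RPKM in hid1 and at 23.5, 15.44 and 15.9 RPKM in WT, where replicate 1 lay among the hid1 values. The fold change was 0.35 (SE 0.17) and was not called. Without WT replicate 1 it was 0.54 (SE 0.14) and past the threshold, so this library decides the call. PRODH1 exceeded P5CS1 by 7.47 ± 0.44 times in hid1 libraries and by 3.43 ± 0.37 times in WT libraries (SD, n = 3 each).

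**Figure D2:**
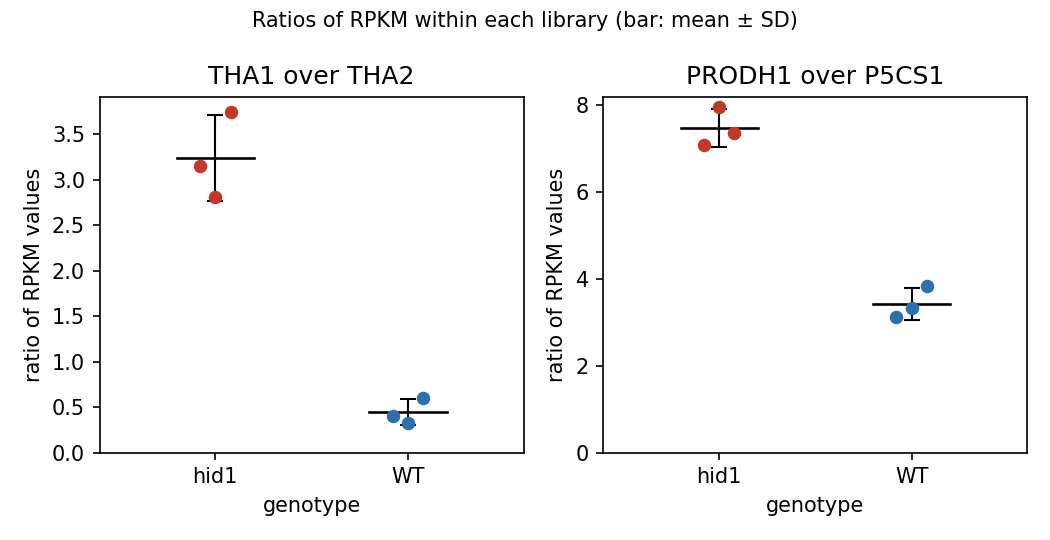
Ratio of RPKM values within each library for THA1 over THA2 (left panel) and PRODH1 over P5CS1 (right panel), with hid1 in red, WT in blue, and the mean ± SD of 3 libraries in black. The lowest hid1 ratio lies above the highest WT ratio in both panels, at 2.81 and 0.60 for THA1 over THA2 and at 7.09 and 3.84 for PRODH1 over P5CS1.

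Of 8 genes of proline synthesis from glutamate, its route from arginine and its transport, 1 rose, none fell and 7 did not pass. Their median fold change was 0.33. Rises and falls made up 9.41% and 4.21% of all genes tested. In 5 of the 8, on the RPKM as deposited, every hid1 library lay above every WT library, against 23.1% of all genes tested. The gene that rose was PROT3, a proline transporter, at 1.63 ± 0.47 RPKM in hid1 and 0.59 ± 0.10 RPKM in WT (0.71, SE 0.19, limma adjusted p = 0.0345, n = 3 each). It is low, and lost its call without hid1 replicate 2 or 3 or WT replicate 2 or 3 (limma adjusted p up to 0.119). P5CS2, the second synthase, stood at 38.9 ± 5.82 RPKM in hid1 and 29.7 ± 1.74 RPKM in WT (limma adjusted p = 0.0827). P5CR, the reductase that completes synthesis, was at 73.7 ± 5.91 and 59.6 ± 2.93 RPKM (limma adjusted p = 0.0859). ARGAH1, PROT1 and PROT2, whose libraries overlapped between the genotypes, had fold changes of 0.04, 0.03 and 0.02 (limma adjusted p = 0.850, 0.928 and 0.960).

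The threonine aldolases contrasted with each other. THA1 stood at 47.37, 38.64 and 56.12 RPKM in hid1 and at 6.36, 4.01 and 8.72 RPKM in WT. The lowest hid1 library was 4.43 times the highest WT library. The means were 47.4 ± 8.74 and 6.36 ± 2.36 RPKM (SD, n = 3 each), a ratio of 7.45, and the fold change of 2.75 (SE 0.22) ranked 9 among all genes tested. THA1 lies on chromosome 1 (2743761 to 2747967, minus strand) in 10 exons. It shares 121 bases with PKDM7D, a gene on the opposite strand at 6.32 to 7.01 RPKM in hid1 and 4.29 to 5.10 RPKM in WT (limma adjusted p = 0.0815).

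THA2, also of 10 exons and on chromosome 3 (1217174 to 1219847), hardly moved. It stood at 15.02, 13.73 and 15.0 RPKM in hid1 and at 15.67, 12.26 and 14.43 RPKM in WT, which span the hid1 values. The fold change of 0.05 (SE 0.12) was not called and took the other sign with quantile normalization (-0.05), with median-ratio scaling (-0.03) and without WT replicate 2 (-0.04). THA1 was therefore the more abundant aldolase in hid1, at 2.81 to 3.74 times the level of THA2, and the less abundant in WT, at 0.33 to 0.60 times.

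In lysine breakdown, LKR/SDH stood at 19.89, 16.82 and 23.24 RPKM in hid1 and at 6.91, 6.72 and 8.17 RPKM in WT. The lowest hid1 library was 2.06 times the highest WT library. The fold change was 1.34 (SE 0.14). The annotation gives this locus, on chromosome 4 (15985174 to 15991633, minus strand, 25 exons), both the bifunctional enzyme and a shorter saccharopine dehydrogenase, and a single RPKM per gene cannot separate them.

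D2HGDH, also on chromosome 4 (17197188 to 17200932) and 1.21 megabases from LKR/SDH, showed the same direction at a lower level. It stood at 6.68, 5.93 and 7.82 RPKM in hid1 and at 3.64, 3.97 and 3.92 RPKM in WT, with no overlap. Its fold change, 0.68 (SE 0.14), was the smallest of the 6 called.

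Several genes of later lysine breakdown and of processes listed with it were higher in hid1 as well. Of 9 genes of later lysine breakdown, pipecolate synthesis and electron transfer from mitochondrial dehydrogenases, 7 passed the filter. Among these 7, 5 rose and none fell, against 9.41% and 4.21% of all genes tested. The other 2 did not pass the test, and the median was 0.87. ALDH7B4, an aldehyde dehydrogenase, was at 84.5 ± 8.45 RPKM in hid1 and 32.5 ± 7.14 RPKM in WT (1.37, SE 0.16, limma adjusted p = 0.000365, n = 3 each). AT1G07040, listed as HGLS but without a function in the annotation, was at 18.2 ± 3.13 and 6.31 ± 0.95 RPKM (1.39, SE 0.15, limma adjusted p = 0.000319, n = 3 each). AT5G52810, listed as SARD4 for pipecolate but annotated only as an NAD(P)-binding protein, was at 16.2 ± 3.43 and 5.44 ± 0.51 RPKM (1.40, SE 0.16, limma adjusted p = 0.000409, n = 3 each). ETFQO, which passes electrons to ubiquinone, was at 16.6 ± 2.02 and 8.63 ± 1.14 RPKM (0.87, SE 0.14, limma adjusted p = 0.00244, n = 3 each). ETFBETA, a subunit of the flavoprotein that feeds ETFQO, was at 15.4 ± 0.75 and 9.30 ± 1.70 RPKM (0.69, SE 0.14, limma adjusted p = 0.0114, n = 3 each). ETFBETA lost its call without hid1 replicate 3 (limma adjusted p = 0.0501). The 2 that did not pass were ETFA and PIPOX. ETFA, the partner subunit of ETFBETA, was at 6.69 ± 2.15 and 6.22 ± 0.55 RPKM (0.06, SE 0.19, limma adjusted p = 0.860). PIPOX was at 23.3 ± 1.18 and 20.7 ± 5.22 RPKM (0.19, SE 0.16, limma adjusted p = 0.468). FMO1 and ALD1, listed with SARD4 for pipecolate metabolism, were below the filter.

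Some genes that make lysine and threonine were lower in hid1. Of 18, none rose and 5 fell, against 9.41% and 4.21% of all genes tested. The other 13 did not pass, and the median was -0.27. AK3, an aspartate kinase at the head of the pathway, fell to 1.69, 0.60 and 2.11 RPKM in hid1, against 10.16, 7.40 and 7.10 RPKM in WT (-1.94, SE 0.24, limma adjusted p = 0.000611, n = 3 each). Another aspartate kinase gene, AK1, was at 20.3 ± 2.42 and 19.9 ± 2.44 RPKM (limma adjusted p = 0.910), a difference that took the other sign in 4 of the 12 other settings. AT3G14390, annotated as a pyridoxal-dependent decarboxylase, was at 18.3 ± 1.85 and 31.0 ± 3.15 RPKM (-0.73, SE 0.12, limma adjusted p = 0.00344, n = 3 each). AT2G44040, a dihydrodipicolinate reductase, was at 19.2 ± 1.23 and 27.2 ± 2.31 RPKM (-0.48, SE 0.11, limma adjusted p = 0.0205, n = 3 each), and AT1G14810, the aspartate semialdehyde dehydrogenase, at 50.5 ± 7.05 and 68.3 ± 2.94 RPKM (-0.44, SE 0.12, limma adjusted p = 0.0371, n = 3 each). The count of 5 was 8 with quantile normalization and 2 without hid1 replicate 1 or 2 or WT replicate 2 or 3, and AT2G44040 and AT1G14810 lost their calls in 4 and 5 of the 12 other settings (limma adjusted p up to 0.0892 and 0.121).

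MGL, the methionine lyase, had the tightest hid1 values of the 6 called genes. It stood at 51.26, 52.25 and 48.18 RPKM in hid1 and at 26.75, 17.56 and 23.28 RPKM in WT. The lowest hid1 library was 1.80 times the highest WT library. The fold change was 1.15 (SE 0.15). The coefficient of variation was 4.20% in hid1 and 20.6% in WT. MGL lies on chromosome 1 (24028830 to 24030780, plus strand) in 3 exons and shares 38 bases with BDG1 on the opposite strand.

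The synthesis, activation and salvage of methionine showed no common direction. Of 24 such genes 23 passed the filter. Among these 23, 3 rose and 2 fell, against 9.41% and 4.21% of all genes tested, and the test left 18 uncalled. The median was 0.05, and was -0.03 with median-ratio scaling and -0.01 without hid1 replicate 3. MS2, a methionine synthase, fell to 33.5 ± 2.64 RPKM in hid1, against 60.4 ± 5.36 RPKM in WT (-0.83, SE 0.11, limma adjusted p = 0.000973, n = 3 each). Its far more abundant relative ATMS1 was at 896.9 ± 51.5 and 879.7 ± 41.0 RPKM (limma adjusted p = 0.898), and how reads shared between such copies were counted is not stated. SAM1, which makes S-adenosylmethionine, rose (472.9 ± 25.8 and 301.8 ± 35.1 RPKM, 0.65, SE 0.12, limma adjusted p = 0.00539, n = 3 each). MTN1, a salvage nucleosidase, rose (109.1 ± 2.75 and 78.3 ± 6.60 RPKM, limma adjusted p = 0.0143, n = 3 each), as did HMT1, a homocysteine methyltransferase (6.18 ± 0.87 and 3.47 ± 0.50 RPKM, limma adjusted p = 0.0162, n = 3 each). The second to fall, ARD3, a dioxygenase of salvage, was at 0.00, 0.10 and 0.10 RPKM in hid1 and 0.56, 1.10 and 1.74 RPKM in WT (limma adjusted p = 0.0217). The count of 5 was 3 without hid1 replicate 1, 2 or 3 or WT replicate 3 and 2 without WT replicate 2, and ARD3, HMT1 and MTN1 lost their calls in 5, 5 and 2 of the 12 other settings (limma adjusted p up to 0.0916, 0.0690 and 0.0598).

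HGO, the ring-opening enzyme of tyrosine breakdown, stood at 22.89, 19.22 and 24.34 RPKM in hid1 and at 8.85, 9.41 and 10.64 RPKM in WT. The lowest hid1 library was 1.81 times the highest WT library. The fold change was 1.12 (SE 0.13). HGO lies on chromosome 5 (21945865 to 21948913, plus strand, 10 exons) and shares 790 bases with AT5G54090 on the opposite strand, which stood at only 1.71 to 2.95 RPKM in hid1 and 1.53 to 2.52 RPKM in WT.

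Genes of the steps before HGO that passed the filter rose. Of 6 other tyrosine breakdown genes 5 passed the filter. Among these 5, 3 rose and none fell, against 9.41% and 4.21% of all genes tested. The other 2 did not pass the test, and the median was 0.69. The dioxygenase that makes homogentisate, PDS1, was at 53.8 ± 3.32 RPKM in hid1 and 25.2 ± 2.79 RPKM in WT (1.07, SE 0.12, limma adjusted p = 0.000261, n = 3 each). The tyrosine aminotransferases AT5G36160 (35.7 ± 4.02 and 21.8 ± 1.69 RPKM, 0.69, SE 0.12, limma adjusted p = 0.00444, n = 3 each) and TAT7 (20.9 ± 2.66 and 12.5 ± 1.03 RPKM, 0.70, SE 0.13, limma adjusted p = 0.00556, n = 3 each) rose. GSTZ1, an isomerase that acts after HGO, was at 25.2 ± 5.05 and 17.8 ± 3.05 RPKM (limma adjusted p = 0.0801). It passed without WT replicate 1 (limma adjusted p = 0.0220) and in no other setting. FAH, also not called, was at 20.1 ± 3.74 and 18.5 ± 1.24 RPKM (0.10, SE 0.14, limma adjusted p = 0.675). TAT3, below the filter, was at 0.22 ± 0.13 and 0.56 ± 0.50 RPKM.

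**Figure D3:**
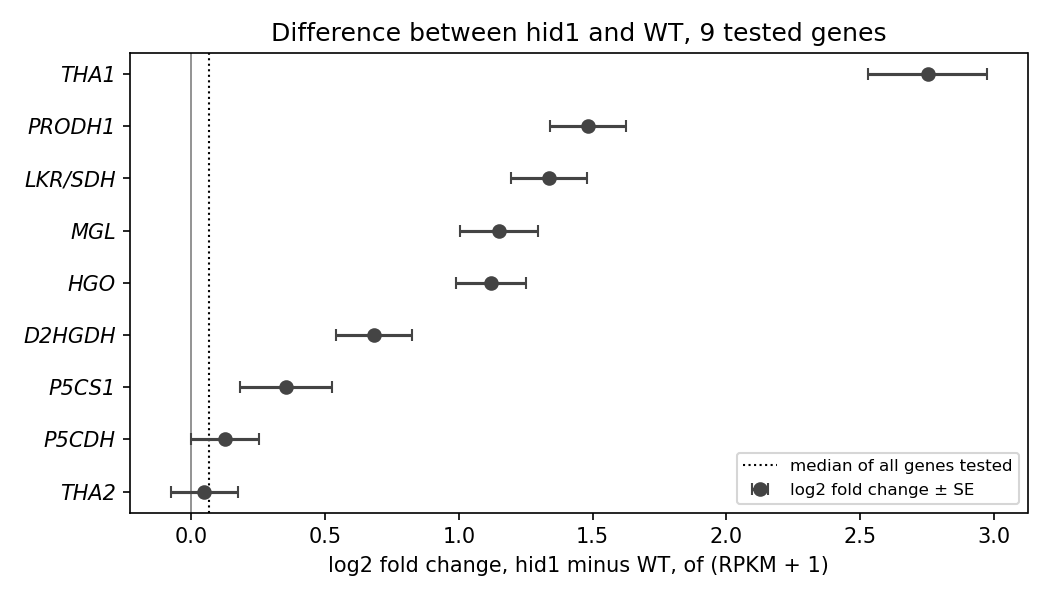
Log2 fold change of (RPKM + 1), hid1 minus WT, with its SE for the 9 tested genes (3 libraries per genotype), with the median of all genes tested as a dotted line at 0.07. THA1 lies at 2.75, PRODH1, LKR/SDH, MGL, HGO and D2HGDH between 0.68 and 1.48, and P5CS1, P5CDH and THA2 at 0.35 or less.

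The order of the levels, per length of transcript, differed between the genotypes. In hid1 it ran PRODH1, MGL, THA1, P5CS1, HGO, LKR/SDH, P5CDH, THA2, D2HGDH, PRODH2. In WT it ran PRODH1, MGL, P5CS1, P5CDH, THA2, HGO, LKR/SDH, THA1, D2HGDH, PRODH2. Neighbours whose mean ± SD ranges overlapped were, in hid1, MGL with THA1 and each adjacent pair from P5CS1 to THA2, and in WT each adjacent pair from MGL to THA2 and from LKR/SDH to D2HGDH. PRODH1, MGL, D2HGDH and PRODH2 held the same places in both, and THA1 stood at place 3 in hid1 and at place 8 in WT.

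Within hid1 the libraries also differed in an order shared by 7 of the 10 genes, a pattern that does not use the contrast between genotypes. It was taken on the RPKM as deposited. Median-ratio size factors were 1.11 for hid1 replicate 3 and 1.01 and 0.99 for replicates 1 and 2. Their part in this order was not tested. Among the hid1 libraries, replicate 3 was the highest for 7 of the 10 genes and replicate 2 the lowest for 9 of 10. Over all genes tested, hid1 replicate 3 was the highest for 53.2% and replicate 2 the lowest for 43.2%. The full order 3, 1, 2 was seen in PRODH1, P5CDH, P5CS1, THA1, LKR/SDH, D2HGDH and HGO, and in 29.0% of all genes tested. MGL ran differently, with replicate 2 the highest. Among the WT libraries no order was shared by more than 4 of the 10 genes, and WT replicate 2 was the lowest for 6 of 10 against 28% of all genes. No batch is named in the labels, so no within-batch value could be given.

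The profiles over all 6 libraries that lay nearest to that of THA1, by root mean square difference of log2 (RPKM + 1) less each gene's own mean and among the 12712 genes averaging 5 RPKM or more, were those of BCAT2 (0.15), SEN1 (0.18) and ASN1 (0.19). BCAT2 is a branched-chain amino acid aminotransferase, SEN1 a gene induced by darkness and ASN1 an asparagine synthetase. For PRODH1 they were those of AT1G07040 (0.08), the hexose transporter gene MSS1 (0.10) and PPDK, a pyruvate, orthophosphate dikinase (0.10). MSS1 stood at 25.18, 26.99 and 31.19 RPKM in hid1 and at 11.32, 6.96 and 7.83 RPKM in WT, and PPDK at 42.4, 35.76 and 46.09 RPKM in hid1 and at 18.56, 12.65 and 16.95 RPKM in WT. These distances are largely set by the separation of the genotypes, which all 8 genes share.

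Most factors of the bZIP groups known to act on some of these promoters were not called. Of 9 factors of groups S1 and C, 2 rose and 1 fell, against 9.41% and 4.21% of all genes tested. The other 6 did not pass, and the median was 0.18. BZIP1, known to rise when sugar is scarce, stood at 31.85, 36.89 and 26.1 RPKM in hid1 and at 14.37, 13.17 and 14.67 RPKM in WT (1.10, SE 0.14, limma adjusted p = 0.000607, n = 3 each). BZIP25 was at 37.9 ± 1.48 and 26.3 ± 3.41 RPKM (0.52, SE 0.12, limma adjusted p = 0.0172, n = 3 each). BZIP11, whose translation is known to be repressed by sucrose, fell to 5.41 ± 1.62 RPKM in hid1, against 9.99 ± 1.05 RPKM in WT (-0.81, SE 0.19, limma adjusted p = 0.0196, n = 3 each). BZIP53, a known activator of PRODH1, was at 26.9 ± 1.63 and 27.9 ± 2.88 RPKM (limma adjusted p = 0.814), and BZIP63 at 31.3 ± 1.86 and 27.5 ± 2.35 RPKM (limma adjusted p = 0.308). The count of 3 was 1 without WT replicate 2, BZIP25 lost its call without hid1 replicate 2 or 3 or WT replicate 2 or 3 (limma adjusted p up to 0.0688), and BZIP11 without WT replicate 2 or a filter on low values (up to 0.0731).

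**Figure D4:**
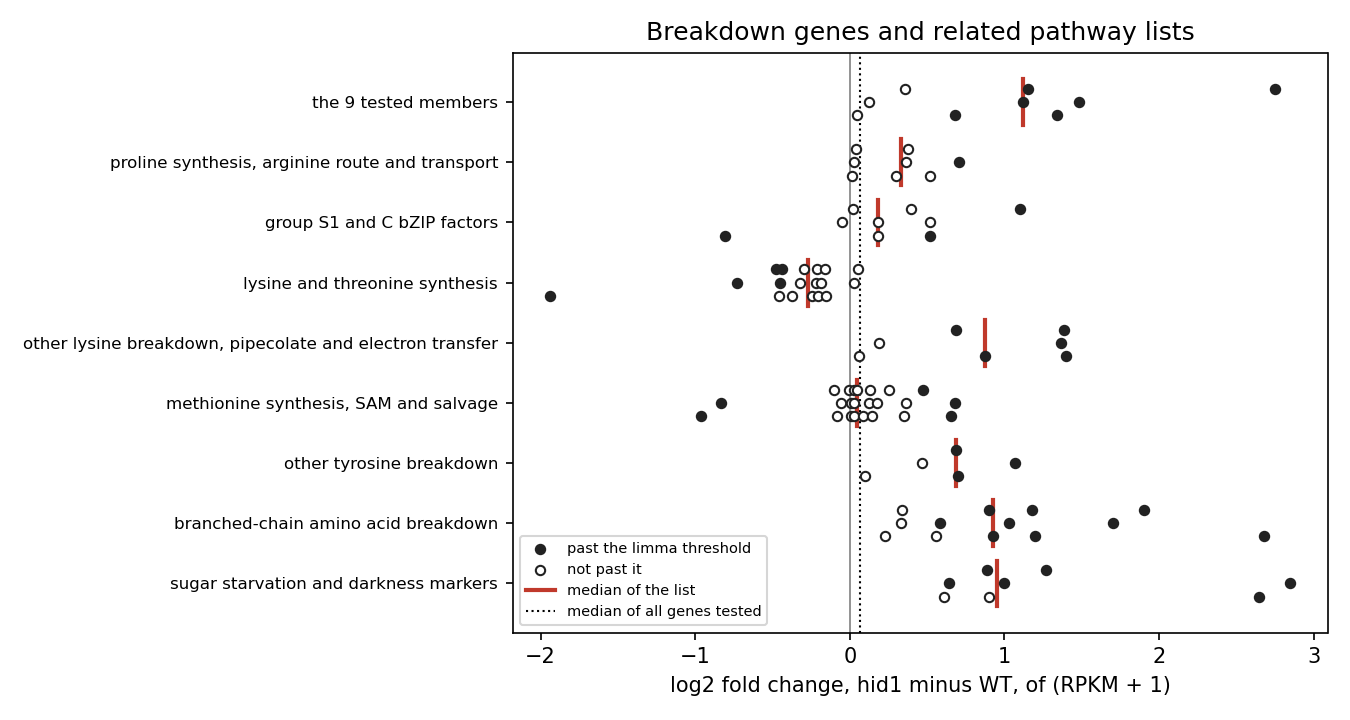
Log2 fold change of (RPKM + 1), hid1 minus WT, of each tested gene (points, filled where past the limma threshold) in the group described here and in 8 related lists, with the median of each list in red and the median of all genes tested dotted. Medians lie between 0.69 and 1.12 for the lists of breakdown genes and starvation markers, at -0.27 for lysine and threonine synthesis, and between 0.05 and 0.33 for the other lists.

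The lists nearest in function were compared only by their values. Of 13 genes of branched-chain amino acid breakdown, 9 rose and none fell, against 9.41% and 4.21% of all genes tested. The other 4 did not pass, and the median was 0.93, beside 1.12 for the 9 tested genes described here. MCCA, a subunit of methylcrotonyl-CoA carboxylase, was at 56.6 ± 5.41 RPKM in hid1 and 16.7 ± 2.12 RPKM in WT (1.70, SE 0.13, limma adjusted p = 3.71e-05, n = 3 each). BCAT2 was at 31.8 ± 8.42 and 4.09 ± 1.15 RPKM (2.68, SE 0.20, limma adjusted p = 4.04e-05, n = 3 each), AT1G21400, annotated as a thiamine diphosphate-binding protein, at 50.6 ± 7.12 and 12.8 ± 1.90 RPKM (1.90, SE 0.14, limma adjusted p = 4.04e-05, n = 3 each), and DIN3, an acyltransferase subunit of the branched-chain dehydrogenase complex, at 24.1 ± 0.37 and 10.08 ± 0.27 RPKM (1.18, SE 0.11, limma adjusted p = 0.000100, n = 3 each).

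Of 8 markers of sugar starvation and darkness, 6 rose and none fell, against 9.41% and 4.21% of all genes tested. The other 2 did not pass, and the median was 0.95. SEN1 stood at 345.7 ± 44.0 RPKM in hid1 and 58.1 ± 28.2 RPKM in WT (2.64, SE 0.26, limma adjusted p = 0.000160, n = 3 each), ASN1 at 148.4 ± 39.2 and 20.4 ± 8.08 RPKM (2.85, SE 0.29, limma adjusted p = 0.000178, n = 3 each), DIN10, a raffinose synthase family member, at 337.9 ± 23.9 and 140.5 ± 19.7 RPKM (1.27, SE 0.12, limma adjusted p = 0.000160, n = 3 each), and TPS10, of the trehalose phosphate synthase family, at 28.03 ± 0.72 and 14.7 ± 0.92 RPKM (0.89, SE 0.11, limma adjusted p = 0.000517, n = 3 each). These lists were chosen with results of these libraries known and are no independent evidence of a direction.

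Root and seed marker levels were higher on average in hid1, as the 6 called genes were, and their part in these differences was not tested. WT replicate 1, with the highest root marker level in WT, was the highest WT library for PRODH1 and MGL, the lowest for D2HGDH and HGO, and lay between the others for THA1 and LKR/SDH. Without it the fold changes of PRODH1, THA1, LKR/SDH, D2HGDH, MGL and HGO were 1.61, 2.78, 1.31, 0.65, 1.28 and 1.07. All 6 kept their call when any single library was left out. Leaving out 1 library does not test the part of the root markers. Their summed level was 217 RPKM or more in every hid1 library and 177 RPKM or less in every WT library. The 10 genes are spread over 5 chromosomes, and 6 of the 10 overlap another listed gene on the opposite strand by 38 to 905 bases. None of those 6 overlapping genes was called.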

How the data were processed

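Poly(A) RNA of 3 hid1 and 3 WT libraries was grouped and numbered by the sample titles. The processing notes of the submitters name TAIR10, TopHat2 2.0.9 and Cuffdiff 2.0.0, without saying what each was used for. Each deposited table holds RPKM, as its header says (per the file headers). No source used here states the read counter, its annotation, its use of strand or what was done with multi-mapping reads, which matters most for overlapping genes and close relatives.

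RPKM are not counts, so log2(RPKM + 1) was fitted in limma 3.58.1 (R 4.3.3) with a mean-variance trend and genotype as the only term, on the 18871 genes averaging 1 RPKM or more in hid1 or WT. Benjamini-Hochberg adjustment covered all of them. The members and lists were chosen with earlier results of these data known. From each list up to 4 called genes with the smallest adjusted p were named, or the 2 highest where none was called, and the 3 nearest profiles for THA1 and PRODH1. ETFBETA, ETFA, PIPOX, ASADH (AT1G14810), ARD3, PIN2, SHR, P5CS2, P5CR, ARGAH1, PROT1, PROT2, AK1, ATMS1, GSTZ1, FAH, TAT3, BZIP53, BZIP63, SESA1, ALD1 and FMO1 were named after their values were seen. For 1 gene of the lists the values are not reported here.

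Of 33323 IDs, 32835 were found in the TAIR10.1 annotation of RefSeq, the source of symbols, positions, transcript lengths and upstream sequence. The coordinates are those of TAIR10.1 and were not compared with the build used by the authors. Depth was estimated by taking the mode of the low values, multiplied by transcript length, as 1 read, so it is approximate and covers counting error only. Alternatives were pseudocounts of 0.1 and 5, no filter, quantile normalization, median-ratio scaling, a replicate block, and each of the 6 libraries left out. Python 3.11.15, pandas 2.3.3, numpy 2.4.6 and matplotlib 3.10.9 were used.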

Additional observations from a re-analysis of the deposited data

How the results depend on the processing

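The 6 called genes kept their direction and call in all 12 other settings. Their fold changes ranged from 2.21 to 2.98 for THA1, 1.36 to 1.61 for PRODH1, 1.02 to 1.45 for LKR/SDH, 0.99 to 1.28 for MGL, 0.89 to 1.21 for HGO and 0.41 to 0.80 for D2HGDH. P5CDH was called in none of the 12, and P5CS1 in 1, without WT replicate 1. THA2 took the other sign with quantile normalization (-0.048) and median-ratio scaling (-0.028), and ranged from -0.043 to 0.12 over the leave-one-out settings. The median of methionine synthesis and salvage was -0.035 with median-ratio scaling and -0.0058 to 0.097 over the leave-one-out settings. RBCS1A was at -0.0096 with median-ratio scaling and -0.079 to 0.160 over the leave-one-out settings, LHCB1.3 at -0.225 to 0.044 and EM6 at -0.195 to 0.552. Other uncalled genes that changed sign were AK1 (-0.077 with quantile normalization, -0.050 with median-ratio scaling, -0.059 to 0.12), ATMS1 (-0.055 with median-ratio scaling, -0.015 to 0.068) and BZIP53 (-0.13 to 0.0048), the ranges over the leave-one-out settings. No called value changed sign.

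The number of changed genes over the whole table was 1432 to 3235 when 1 library was left out. Over the same settings the counts of called genes were 0 to 1 for proline synthesis and transport, 1 to 3 for the bZIP factors, 2 to 6 for lysine and threonine synthesis and 2 to 6 for methionine. Lysine and threonine synthesis had 8 with quantile normalization.

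With a replicate block there were 3635 changed genes and 2 calls in proline synthesis and transport, and no call among the 10 genes changed. Same-numbered libraries correlated by 0.31, 0.06 and 0.11 in their deviations from the genotype means, so not every pair was over 0.1. WT replicate 2 was closest to hid1 replicate 3 (0.26). The replicate block was used as an alternative only. Whether replicate numbers mark a shared batch was not tested. Depth limits PRODH2 most, at 11 to 45 reads per library.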
